A study of Homo sapiens with 6 samples.

Results

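A set of genes that regulate plasminogen activation and coagulation were followed in SW839 cells, an established human renal cell carcinoma line, after knockdown of the E3 ubiquitin ligase RNF25. They were 9 genes chosen by symbol from the deposited table of 30267 genes, as PLAU, PLAT, PLAUR, SERPINE2, SERPINB2, F3, TFPI, TFPI2 and THBD, and 8 of the 9 had values. THBD, the thrombin receptor thrombomodulin, was not analysed here. Total RNA depleted of ribosomal RNA was sequenced from 3 libraries of cells carrying an RNF25 short hairpin (shRNF25) and 3 libraries of cells carrying the pLKO control vector (shControl). By the study's methods such cells are made with lentivirus and kept under puromycin selection, which both groups would share, and 1 hairpin name appears in the library names. The treatment field of every sample, controls included, names the shRNF25 plasmid, so the groups rest on titles and genotype labels.

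Plasminogen is converted to plasmin, the protease that dissolves fibrin and degrades matrix, by urokinase (PLAU) and by tissue-type plasminogen activator (PLAT). Urokinase is held at the cell surface by its receptor PLAUR, and both activators are blocked by serpins such as SERPINE2 and SERPINB2. Coagulation starts when tissue factor (F3) binds factor VIIa, a step inhibited by TFPI, while the related TFPI2 mainly inhibits plasmin and other matrix-degrading proteases. PLAU, PLAUR, SERPINB2 and F3 are widely listed among genes induced by TNF-α through NF-κB, the pathway this study examined.

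RNF25 itself had normalized counts of 694, 534 and 536 in shControl replicates 1, 2 and 3 and of 214, 246 and 265 in the shRNF25 libraries, which is 41.1% of the control mean. STK36, which overlaps RNF25 on the opposite strand, had 613 to 1291 reads per library against 235 to 628 for RNF25 and went from 795 to 1183, and without the strand setting of the counting reads in the overlap cannot be assigned. The libraries held 18647460 to 19943154 gene reads. The shControl libraries differed more among themselves (Pearson correlations across genes of 0.976 to 0.988) than the shRNF25 libraries did (0.994 for each pair), and shControl replicate 1 was the least like the other control libraries. Between the groups the correlations were lower, at 0.9545 to 0.9663. The chi-square of the reads per degree of freedom gave another order. By it shControl replicate 1 was 105.3 and 100.4 from control replicates 2 and 3. Control replicates 2 and 3 were only 58.33 to 62.5 from the shRNF25 libraries. The shRNF25 pairs lay at 3.741 to 5.408. The relative spread was larger in shControl than in shRNF25 for 83.4% of all tested genes, and for each of the 8 regulators with values. Control names do not follow 1 pattern whereas shRNF25 names do, and no batch is labelled, so the knockdown and a batch split along the same line cannot be told apart. Summed renal and epithelial markers were high in every library, at 54270 to 64816 in shControl and 65295 to 69844 in shRNF25, with CA9 below the filter on low values. Leukocyte markers summed to 42.1 to 54.2 and 19.1 to 34.6, with CD3E and CD68 at 3 reads or fewer in each library. Fibroblast markers summed to 1107 to 1291 in shControl and 871 to 1017 in shRNF25, with DCN and COL1A2 at 3 reads or fewer. Most of that sum came from COL1A1, at a mean of 1045 over all libraries.

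Of the 8 regulators 6 fell in shRNF25 and 0 rose. The urokinase gene PLAU, its receptor PLAUR, the serpin SERPINB2, tissue factor F3 and the Kunitz-type inhibitors TFPI and TFPI2 were lower, by between 1.99-fold and 4.24-fold, while PLAT and SERPINE2 did not pass. A gene was called when limma's Benjamini-Hochberg adjusted p over 16554 tested genes was below 0.05 and the fold change was at least 1.5, the cutoffs of the study. By this rule 7.1% of all tested genes were lower and 8.65% were higher, so that 75% of the 8 regulators (6 genes) stood against a background of 7.1%. The regulators were chosen with earlier results of these data known, so this contrast describes the list and is not a test. Of all tested genes 21.8% were lower without overlap between the groups, which held for the same 6 regulators. By sign alone 7 of the 8 were lower, against 51.2% of all tested genes. The median log2 fold change was -1.34 over the 8 regulators and -0.01 over all tested genes. With library totals in place of the deposited scaling, which moved the median of all genes to 0.19, 684 genes were lower and 2377 higher, against 1175 and 1432 with the deposited scaling, and 6 regulators were again lower.

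**Figure D1:**
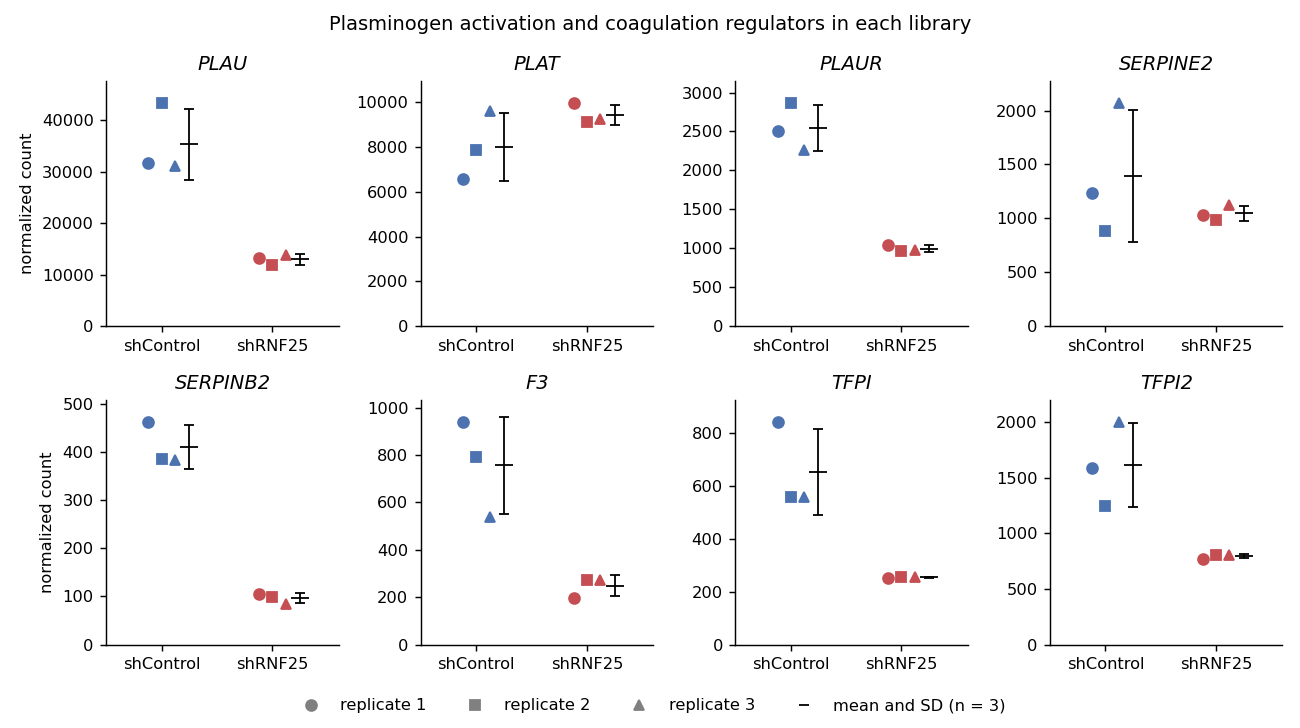
Normalized counts of the 8 regulators (vertical axes, each starting at 0) in the 3 shControl and 3 shRNF25 libraries. Markers show replicates and the bars the mean ± SD (n = 3). In 6 of the 8 panels every shRNF25 library lies below every shControl library, and in the panels of PLAT and SERPINE2 the groups overlap.

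PLAU, the urokinase gene, lies on chromosome 10 from 73909177 to 73917497 on the plus strand (GRCh38, GENCODE 29). Its normalized counts were 31627, 43303 and 31024 in shControl and 13156, 11845 and 13904 in shRNF25. The groups were far apart, and shControl replicate 2 was the highest library. The means were 35318 ± 6922 and 12968 ± 1042 (SD, n = 3), which on the log2 scale is a fold change of -1.43 (standard error, SE, 0.149, limma adjusted p = 0.000318). PLAU took 0.143% to 0.213% of the reads on genes in the control libraries and 0.0649% to 0.0766% in the shRNF25 libraries. C10orf55, annotated on the opposite strand across part of PLAU, had at most 134 reads in a library, against at least 12826 for PLAU, and the strand setting of the counting is not given in the sources used here.

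PLAUR encodes the urokinase receptor, a surface protein anchored by glycosylphosphatidylinositol, and lies on chromosome 19 from 43646095 to 43670547. The receptor had normalized counts of 2506, 2862 and 2265 in shControl and 1045, 967 and 972 in shRNF25. It had the smallest SE of the 8 regulators, with a log2 fold change of -1.35 (SE 0.116, limma adjusted p = 0.000128), and it stood at 39.1% of the control mean.

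PLAT, the tissue-type activator gene on chromosome 8 from 42175233 to 42207724, did not follow the urokinase genes. Its normalized counts were 6564, 7859 and 9614 in shControl and 9957, 9106 and 9252 in shRNF25, so shControl replicate 3 lay within the range of the shRNF25 libraries. The log2 fold change was 0.25 (95% interval -0.068 to 0.57, adjusted p = 0.237 from limma), an interval that leaves out any fall like that of PLAU. The adjusted p passed below the threshold with quantile normalization (log2 fold change 0.47, adjusted p = 0.0408) and without shControl replicate 3 (0.39, adjusted p = 0.044), and was at most 0.491 over the 17 alternative fits, but in none of them did the fold change reach 1.5.

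SERPINB2, also known as plasminogen activator inhibitor type 2, fell most among the 8 regulators. The gene lies on chromosome 18 from 63871692 to 63903890. The serpin had normalized counts of 463, 386 and 384 in shControl and 106, 97.9 and 84.8 in shRNF25, which rest on 356 to 419 and on 89 to 116 reads. The log2 fold change was -2.09 (SE 0.15, limma adjusted p = 4.5e-05), leaving 23.4% of the control mean.

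SERPINE2, which encodes the thrombin and urokinase inhibitor protease nexin-1, lies on chromosome 2 from 223975112 to 224039319. Its normalized counts were 1231, 879 and 2067 in shControl and 1034, 984 and 1120 in shRNF25. The control libraries spread widely (a coefficient of variation of 43.8%) and enclosed every shRNF25 library. The log2 fold change was -0.32 (95% interval -0.90 to 0.25, adjusted p = 0.402 from limma), so that a fall of 1.5-fold and no fall both lie within the interval. Without shControl replicate 3, the highest library, the difference was 0.0053 on the log2 scale (adjusted p = 0.984).

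F3 encodes tissue factor, the transmembrane receptor for factor VIIa, on chromosome 1 from 94529225 to 94541800. The gene had normalized counts of 941, 791 and 537 in shControl and 196, 273 and 275 in shRNF25. Both groups varied, yet the lowest control library was above each shRNF25 library. The log2 fold change was -1.58 (SE 0.218, limma adjusted p = 0.00133), and F3 stood at 32.8% of the control mean. Without shControl replicate 3, the lowest control library, it was -1.81.

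TFPI, the Kunitz-type inhibitor of factor Xa and of the tissue factor complex, lies on chromosome 2 from 187464230 to 187565760. Its normalized counts were 842, 558 and 557 in shControl and 253, 255 and 255 in shRNF25. The log2 fold change was -1.33 (SE 0.170, limma adjusted p = 0.000944). The shRNF25 values differed by less than counting error alone would give, with an SD of 0.822 against a counting SD of 15.4. AC007319.1, an antisense gene annotated over part of TFPI, had 25 to 40 reads per library against at least 267 for TFPI.

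TFPI2, on chromosome 7 from 93885396 to 93890991, encodes a secreted matrix protein of the same Kunitz family. Its normalized counts were 1585, 1250 and 2003 in shControl and 773, 806 and 802 in shRNF25. It had the smallest change of the 6 genes that fell, with a log2 fold change of -0.996 (SE 0.162, limma adjusted p = 0.00304), just short of 2-fold. Genes annotated on the opposite strand of TFPI2, GNGT1 and AC002076.1, were not analysed here.

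For each of these 6 genes the exact permutation test of the log2 values of the 6 libraries gave p = 0.1 (two-sided), the smallest p that 3 libraries against 3 allow. The 6 genes were called in each of the 17 alternative fits, with a largest adjusted p of 0.0225 for TFPI2 without shRNF25 replicate 1. In bulk RNA, fewer cells that express a gene and less of its RNA per cell cannot be told apart.

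Levels of different genes were compared as normalized counts per kb of merged exons. In shControl PLAU stood at 11972 ± 2346 per kb (SD, n = 3), rank 37 of 15978 genes. PLAT followed at 1211 ± 231 per kb, then TFPI2 at 601 ± 141, PLAUR at 571 ± 67.3, F3 at 263 ± 70.9, SERPINE2 at 157 ± 68.6, SERPINB2 at 150 ± 16.4 and TFPI at 55.7 ± 14.0. Among neighbours in that order, the control libraries of TFPI2 and PLAUR overlapped, as did those of F3 and SERPINE2 and of SERPINE2 and SERPINB2. In shRNF25 PLAU was still the highest, at 4396 ± 353 per kb, and PLAT was at 1426 ± 68.8 per kb. SERPINE2 at 118 ± 7.76 per kb was then above F3 at 86.2 ± 15.7 without overlap, and SERPINB2 went from rank 5560 to rank 10591. With the length of the longest coding transcript in place of merged exons, PLAU and PLAT stayed first and second and PLAUR stood above TFPI2 in both groups. By that length the mean of SERPINE2 was above that of F3 in shControl too, with overlapping libraries, and in shRNF25 SERPINE2 stood above TFPI2 and TFPI above SERPINB2, both without overlap.

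**Figure D2:**
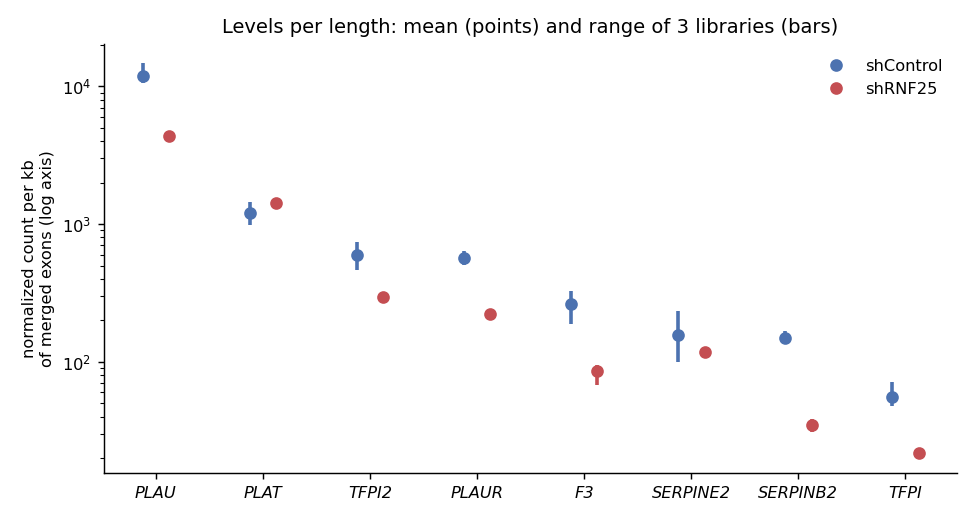
Normalized count per kb of merged exons (log axis) of the 8 regulators, ordered by the shControl mean. Points are means and bars the range of 3 libraries. PLAU is the highest in both groups, at 11972 and 4396, and PLAT and SERPINE2 are the genes whose ranges overlap between groups.

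Ratios between genes within a library, in which the scaling of the library cancels, were taken for 5 pairs picked after their values had been seen. The ratio of PLAU to PLAT, the urokinase to the tissue-type activator, was 4.82, 5.51 and 3.23 in shControl and 1.32, 1.3 and 1.5 in shRNF25. No shRNF25 library came near the control range. The log2 ratio differed by -1.68 (two-sided exact permutation test, p = 0.1, adjusted to 0.25 over the 5 pairs). The ratio of SERPINB2 to SERPINE2 was 0.376, 0.439 and 0.186 in shControl and 0.102, 0.0995 and 0.0757 in shRNF25, again without overlap (log2 difference -1.76, exact p = 0.1, adjusted to 0.25).

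In the other 3 pairs the groups overlapped. PLAU to PLAUR, the protease to its receptor, lay between 12.6 and 15.1 in shControl and between 12.3 and 14.3 in shRNF25 (log2 difference -0.083, exact p = 0.5). F3 to TFPI lay between 0.965 and 1.42 and between 0.773 and 1.08 (log2 difference -0.26, exact p = 0.4). F3 to TFPI2 differed by -0.59 on the log2 scale (exact p = 0.3), and each of the 3 was adjusted to 0.5 over the 5 pairs. With 3 libraries a group, an exact p above the threshold does not show that these ratios were equal.

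**Figure D3:**
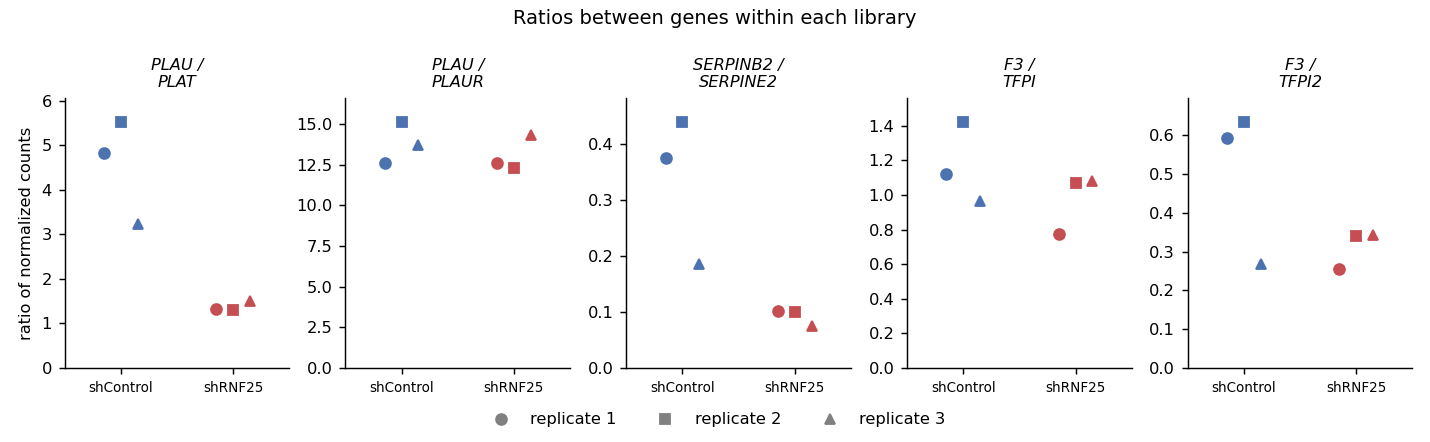
Ratios of normalized counts between 2 genes within each library (vertical axes start at 0), by group, with a marker for each replicate. The ratios of PLAU to PLAT and of SERPINB2 to SERPINE2 are lower in each shRNF25 library than in each shControl library, and the other 3 ratios overlap.

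Other genes of plasminogen activation were described from a list of 23 genes, of which 21 were analysed and 13 passed the filter on low values. Of these 13, 1 fell, 1 rose and 11 did not pass, or 7.69% in each direction, close to the 7.1% lower and 8.65% higher of all tested genes. The median log2 fold change was -0.25. CPM, a membrane carboxypeptidase that removes basic residues from the ends of proteins, went from 103 ± 7.13 to 48.2 ± 6.55 (SD, n = 3, log2 fold change -1.09, adjusted p = 0.00338 from limma). SERPINI1, the neuronal inhibitor of tissue-type activator, was the gene that rose, at 13.3 to 21.6 in shControl and 44.8 to 46.5 in shRNF25 (log2 fold change 1.37).

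The genes of that list without a call that follow were picked after their values were seen. ANXA2, a plasminogen-binding annexin, was at 27344 ± 1068 in shControl and 22938 ± 642 in shRNF25 (SD, n = 3, adjusted p = 0.113 from limma). Its partner S100A10 was at 3868 ± 378 and 4345 ± 204 (adjusted p = 0.295 from limma). The endocytic receptor LRP1, which clears activator and inhibitor complexes, was at 4133 ± 1174 and 3287 ± 195 (adjusted p = 0.273 from limma). The plasminogen receptor gene PLGRKT was at 215 and 180 (adjusted p = 0.238 from limma). Plasminogen itself (PLG) had 0, 0 and 1 reads in shControl and 2, 3 and 4 in shRNF25. It was below the filter on low values and was not tested, and so few reads cannot establish a difference. ST14, the matriptase gene, passed on the adjusted p (0.0142) with a log2 fold change of -0.50, which is below the fold cutoff.

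Other coagulation genes were described from a list of 39 genes, of which 32 were analysed and 22 passed the filter. Of these 22, 2 fell, 6 rose and 14 did not pass, or 9.09% lower and 27.3% higher against 7.1% and 8.65% of all tested genes. The median log2 fold change was 0.18, and most of those that rose had low counts. PROCR, the protein C receptor, fell from 824 to 394 (n = 3, log2 fold change -1.05, adjusted p = 0.00195 from limma), without overlap of the groups. Summed endothelial markers lay at 506 to 704 in shControl and 502 to 654 in shRNF25, most of it from PECAM1. Within that list CDH5, the cadherin of endothelial junctions, fell from 66, 100 and 184 reads to 4, 9 and 6, and KDR, a VEGF receptor gene, rose from 24, 29 and 16 reads to 97, 88 and 88. Their part in the PROCR result was not tested. SPINT1, a Kunitz-type inhibitor of matriptase, fell from 8121 ± 2219 to 5257 ± 26.8 (log2 fold change -0.59, adjusted p = 0.0356 from limma). SPINT1 lost its call in 9 of the 17 alternative fits, among them those without shControl replicate 2 or 3 (at the latter the log2 fold change was -0.38) and without any 1 of the shRNF25 replicates.

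Of the genes that rose, PROS1 and F2R were the most abundant. PROS1 encodes protein S, a cofactor of activated protein C and of TFPI, and was at 274, 234 and 287 in shControl and 592, 492 and 512 in shRNF25 (95% interval of the log2 fold change 0.70 to 1.31, adjusted p = 0.00124 from limma). F2R, the thrombin receptor PAR1, went from 856 ± 227 to 1657 ± 73.1 (SD, n = 3, log2 fold change 0.99, adjusted p = 0.0049 from limma). F2RL1, the receptor PAR2 that tissue factor complexes can activate, was at 4685 ± 1174 and 4218 ± 71.4 and was not called (adjusted p = 0.653 from limma). Both PROS1 and F2R were called in each of the 17 alternative fits.

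The other genes that rose were near the lower end of what was counted. FGB, the fibrinogen β chain, had 3, 4 and 5 reads in shControl and 42, 32 and 31 in shRNF25 (log2 fold change 2.67, adjusted p = 0.000506 from limma). The hepatocyte marker list, which also holds FGB, summed without it to 39.0 to 92.8 in shControl and 16.6 to 22.8 in shRNF25 (with it, 43.1 to 98.2 and 46.2 to 61.0). Its member SERPINA1 fell, from 34, 35 and 78 reads to 15, 7 and 13, with ALB, CYP3A4 and AHSG at 3 reads or fewer in each library. Their part in the result was not tested. F10, the factor X gene, had 7, 6 and 4 reads against 23, 24 and 21 (log2 fold change 1.67, adjusted p = 0.00581 from limma). F5, the factor V gene, had a log2 fold change of 1.49 (adjusted p = 0.0464 from limma) and kept its call in 9 of 16 alternative fits. It was lost with no filter on low values, with quantile normalization, without shControl replicate 1 or 2 and without any 1 of the shRNF25 replicates, with an adjusted p of up to 0.149. GP1BA, a platelet glycoprotein gene, went from 23.2 ± 0.983 to 51.1 ± 1.98 (log2 fold change 1.11). The platelet marker list that holds GP1BA summed to 149 to 166 in shControl and 175 to 182 in shRNF25, and without GP1BA to 126 to 144 and 127 to 130. Its defining chemokine genes PF4 and PPBP went from 17.5 to 4.38 and from 25.8 to 0.616. Its members ITGA2B and TUBB1 went the other way, without a call. ITGA2B had 52, 79 and 57 reads in shControl and 105, 88 and 96 in shRNF25. TUBB1 had 16, 26 and 22 reads in shControl and 35, 43 and 32 in shRNF25. Their part in the result was not tested.

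**Figure D4:**
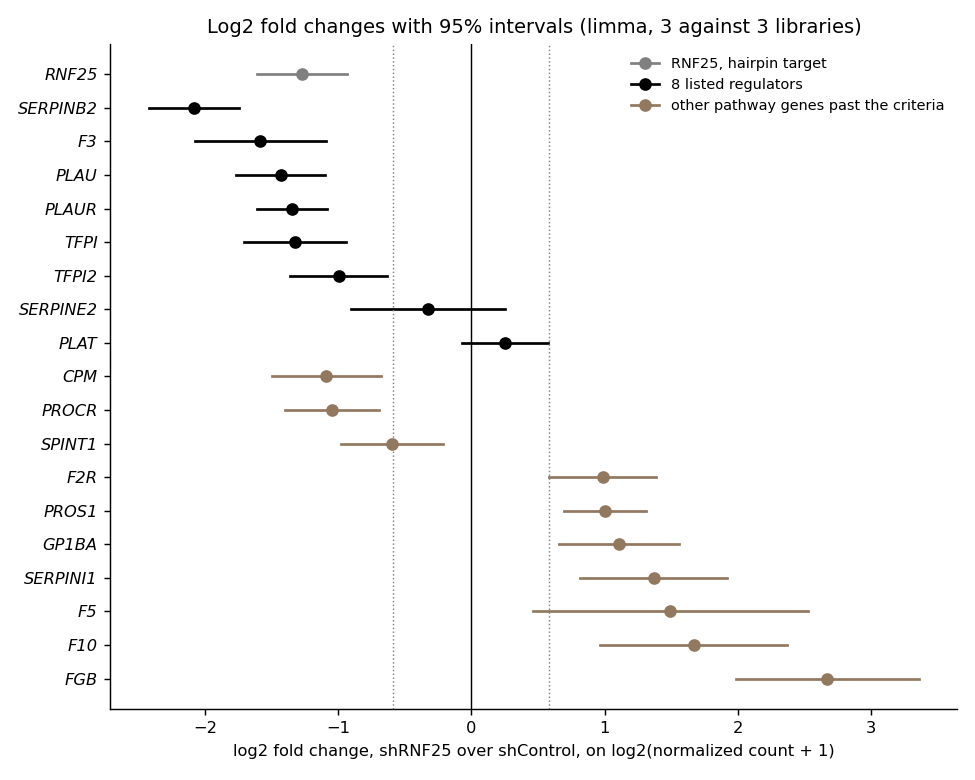
Log2 fold changes of shRNF25 over shControl on the log2(normalized count + 1) scale (horizontal axis) with 95% intervals from limma, for RNF25, the 8 regulators and the 10 other pathway genes past the criteria. Dotted lines mark a fold change of 1.5 in either direction. The 6 regulators that fell lie to the left of the line and the intervals of SERPINE2 and PLAT cross 0.

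The genes whose log2 values followed a regulator most closely over the 6 libraries were taken for the 3 with the largest changes. They were SLC25A37, PRAME and GRAMD1A for SERPINB2, LINC02492, TLCD3A and TRAP1 for F3, and IKBKE, NBPF8 and PIK3CD for PLAU, each with a Pearson correlation above 0.95. The difference between the groups dominates such a correlation, which 718, 474 and 456 tested genes also passed with SERPINB2, F3 and PLAU.

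The 250 bases before the RefSeq start sites were read for 7 of the regulators, PLAT being left out, to see what the genes that fell share in sequence. The letters TGANTCA, the AP-1 motif, which reads the same on both strands, were found in 4 of the 6 genes that fell. They were found in 6.57% of all windows of this length (n = 35114). A gene can have several windows, as PLAU does, so a share by gene and a share by window are unlike measures. The 4 windows are shown 5′ to 3′ on the strand of the gene (GRCh38.p14), with the matches to TGANTCA, to GGNNTTTCC, to the κB consensus and to TATAAA in capitals. They are chr1:94541760-94542009 on the minus strand for F3, chr7:93890754-93891003 on the minus strand for TFPI2, chr19:43670170-43670419 on the minus strand for PLAUR and chr18:63887455-63887704 on the plus strand for SERPINB2.
F3: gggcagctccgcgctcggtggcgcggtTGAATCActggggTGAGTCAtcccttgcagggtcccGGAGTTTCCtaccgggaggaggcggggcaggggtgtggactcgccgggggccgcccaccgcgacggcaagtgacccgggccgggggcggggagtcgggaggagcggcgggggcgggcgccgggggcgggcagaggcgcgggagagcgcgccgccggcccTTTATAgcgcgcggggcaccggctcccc
TFPI2: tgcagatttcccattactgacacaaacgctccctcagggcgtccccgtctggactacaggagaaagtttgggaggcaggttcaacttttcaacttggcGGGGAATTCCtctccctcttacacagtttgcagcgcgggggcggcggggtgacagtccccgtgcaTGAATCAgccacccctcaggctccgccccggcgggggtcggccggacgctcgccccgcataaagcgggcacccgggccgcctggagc
PLAUR: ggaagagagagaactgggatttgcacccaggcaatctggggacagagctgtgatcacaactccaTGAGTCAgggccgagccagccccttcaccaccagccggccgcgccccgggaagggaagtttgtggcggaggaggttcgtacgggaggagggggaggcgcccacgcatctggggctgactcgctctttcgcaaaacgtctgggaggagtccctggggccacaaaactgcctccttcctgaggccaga
SERPINB2: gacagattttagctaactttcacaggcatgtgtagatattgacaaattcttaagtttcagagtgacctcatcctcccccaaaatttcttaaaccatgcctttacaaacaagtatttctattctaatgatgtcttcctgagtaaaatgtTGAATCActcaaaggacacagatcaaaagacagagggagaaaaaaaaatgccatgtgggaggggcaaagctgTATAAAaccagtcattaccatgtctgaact

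The F3 window held the AP-1 letters at 2 places, starting 223 and 210 bases before the start site, and the NF-κB-like letters GGNNTTTCC, searched on both strands, 187 bases before it. The last were found in 5.48% of all windows and in no other window of the regulators. The κB consensus was found 152 bases before the start of TFPI2, and in 9.96% of all windows. TFPI2 held the AP-1 letters 87 bases, SERPINB2 102 bases and PLAUR 186 bases before the start. TATAAA, also searched on both strands, was found in SERPINB2 and, as TTTATA on the strand shown, in F3. By this search it was in 10.7% of all windows. The motif GGGCGG of SP1, which is not marked in the sequences, was found in F3, TFPI2, PLAU and SERPINE2 and in 42.6% of all windows. Neither window of PLAU, nor that of TFPI, held the AP-1 or κB letters, although both genes fell, and SERPINE2, which was not called, held neither. A match describes the letters of these windows alone.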

How the data were processed

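The authors deposited normalized counts of 30267 genes in 6 libraries, a signal made by dividing reads per gene by a size factor for each library. The submitters' processing notes name fastp, HISAT2, HTSeq and GRCh38, and the paper names DESeq2. The annotation and the strand setting of the counting are not given in the sources used here. Whole reads came back for 100% of values within a tolerance of 0.05 reads, and the size factors equaled those of DESeq2.

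The normalized counts were transformed as log2(value + 1), and 16554 genes reaching 10 or more in 3 or more libraries were tested. The design held group alone, fitted by limma 3.58.1 (lmFit, eBayes with a trend, R 4.3.3). The log2(value + 1) scale understates the change of low genes. Adjusted p-values are Benjamini-Hochberg values over all tested genes. The paper's figure legends describe its experiments in general as independent triplicates. Its RNA-seq methods do not give the number or kind of replicates. The count tests edgeR 4.0.16 and DESeq2 1.42.0 on the recovered reads, other pseudocounts, filters and scalings, library weights, the replicate block and each library left out were alternatives. Scaling by library totals was added after the data had been seen. The fit was tested on simulated data in which both groups had the same dispersion. The groups here differed in spread, so that test does not cover such a difference.

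Regulators and lists were chosen with earlier results of these data known. The genes named are RNF25, the regulators, up to 12 called genes of the pathway lists and the 3 genes most like each of the 3 regulators with the largest changes. ANXA2, S100A10, LRP1, PLGRKT, PLG, ST14, F2RL1, PF4, PPBP, ITGA2B, TUBB1, CDH5, KDR, SERPINA1, LAPTM5, PTPRC and STK36 were named after their values were seen. Positions and merged exon lengths come from GENCODE 29 (GRCh38), matched by symbol, and promoter windows from RefSeq (GRCh38.p14). One gene of the pathway lists is not reported here. Marker lists were written from general knowledge. Intervals are 95% intervals from limma.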

Additional observations from a re-analysis of the deposited data

How the results depend on the processing

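The 6 regulators that fell were called lower in each of the 17 alternative fits, and 5 of them with a fold change of at least 2 (TFPI2 was at 1.99). RNF25 stayed between -1.34 and -1.07. SERPINE2 ranged from -0.61 to 0.0053 on the log2 scale when 1 library was left out, so its sign rests on shControl replicate 3. The count of other pathway genes that rose was 7, and 2 with a filter of at least 50 in 3 libraries, which tested fewer genes (12755). The count of those that fell was 3, and 5 without a fold cutoff. Over all genes, the counts of 1175 lower and 1432 higher were 684 and 2377 with scaling by library totals (added after the data had been seen), 513 and 893 with a fold change of at least 2, and 1785 lower genes without a fold cutoff. The stricter filter left 898 higher genes. With single libraries omitted, lower genes numbered 813 to 1269 and higher genes 748 to 1725, the low counts coming without shRNF25 replicate 1, 2 or 3 (748, 824 and 831 higher). The replicate numbers did not pair the samples (correlations of deviations of -0.0638, -0.0874 and 0.0471), and with the number as a replicate block 6 regulators were lower, as in the fit without it, beside 1193 lower and 1398 higher genes in all. Low counts limit FGB, F10 and F5 most.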
